A study of Mus musculus with 12 samples.

Results

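Stroma was compared with epithelium inside MMTV-wnt1 mammary gland tumours that kept both copies of Rarb, the gene for retinoic acid receptor beta. The 6 arrays were those of the Rarb +/+ (WT) tumours, of 12 arrays in the series: 3 of tumour epithelium and 3 of tumour stroma, paired by the tumour number 1, 2 or 3 in their titles. The other 6 arrays came from epithelium and stroma of 3 Rarb -/- (KO) tumours. All tumours were wnt1-driven and on the FVB strain; the MMTV promoter directs the transgene mainly to mammary epithelium, and ages are not given in the sources used here. Each compartment was cut from stained sections by laser capture microdissection, which collects cells under a microscope and takes in whatever lies in the captured spot. Sample RNA was labelled with Cy3 and hybridised with a common mouse reference RNA labelled with Cy5, so every value is a log2 ratio of sample to reference for one gene. A difference of 1 on this scale is 2-fold.

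Mammary tumour epithelium of this model holds luminal cells, marked by keratins 8 and 18 and by the transcription factors Foxa1, Gata3 and Elf5, and basal cells, marked by keratins 5 and 14 and p63. Tumour stroma holds fibroblasts, which secrete collagens and other matrix proteins, together with vessels and white blood cells such as macrophages and lymphocytes. Retinoic acid receptor beta is a nuclear receptor that regulates transcription when retinoic acid is bound. In captured tissue, fewer cells of a type and less RNA per cell cannot be told apart.

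On the 6 arrays, 40.7% to 46.3% of probes had Cy3 above background and no spot was saturated. A gene was kept when its probe was above background on at least 3 of the 6 arrays, which left 12584 genes of 20660. All epithelial arrays lay on 1 slide and all stromal arrays on the other, so slide and compartment cannot be told apart. The array of WT epithelium 3 stood apart: it had 211 non-uniform spots against 4 to 16 on the other 5 arrays, and it correlated with the other 5 across genes at r = 0.63 to 0.77. The labels do not say that the tumours came from separate mice, so the p-values given here rest on the spread among these arrays alone, which may be technical.

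Stroma and epithelium of a WT tumour resembled each other, most closely in tumour 1 and least in tumour 3. Across the kept genes, the 2 arrays of tumour 1 correlated at r = 0.928, those of tumour 2 at r = 0.855 and those of tumour 3 at r = 0.743. The low value of tumour 3 involves the array of WT epithelium 3, which stood apart from every array. The stroma of tumour 3 correlated at r = 0.833 and 0.873 with the epithelia of tumours 1 and 2. Between tumours, r was 0.766 to 0.879 within epithelium and 0.771 to 0.874 within stroma. The share of genes at least 2-fold apart was 5.19% in tumour 1, 9.11% in tumour 2 and 17.1% in tumour 3. With Agilent's processed signals these shares were 12.04%, 17.6% and 27.2%. In the 3 KO tumours r lay between 0.550 and 0.652, and 21.4% to 29.2% of genes were at least 2-fold apart. These correlations are across genes of arrays that share the reference RNA and are given as a description. The epithelial markers Wnt1 and Krt5 stayed high in the arrays labelled WT stroma. Wnt1, the transgene, read 7.67, 7.24 and 7.14 in epithelium and 7.20, 6.60 and 6.53 in stroma. Krt5, a basal keratin, read 7.66, 8.21 and 7.47 in epithelium and 7.83, 7.79 and 8.44 in stroma. Neither gene separated the compartments by as much as 2-fold in any tumour. The luminal factor Foxa1, by contrast, was above background in all 3 epithelial arrays and in 0 of 3 stromal arrays. Of 23 measured luminal genes, 11 were lower in stroma in all 3 tumours and 1 was higher. The shares among all genes were 15.4% and 15.8%. The arrays labelled WT stroma may hold epithelial RNA, whose share was not measured, and every WT stroma value is to be read with that doubt.

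**Figure D1:**
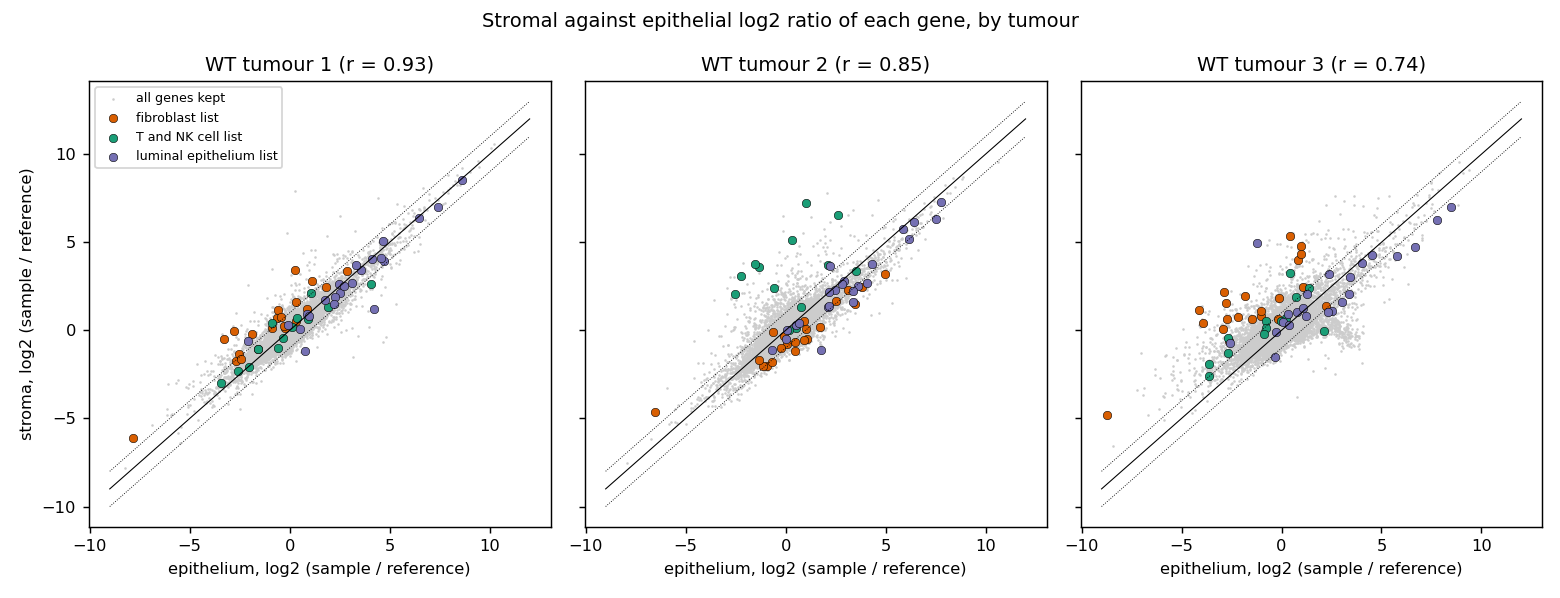
Each panel plots 1 WT tumour, with the epithelial log2 ratio of each kept gene on the horizontal axis and the stromal log2 ratio on the vertical axis (log2 of sample over reference). The solid line marks equality and the dotted lines a 2-fold difference; the fibroblast genes (orange) lie above the line in tumours 1 and 3 and mostly below it in tumour 2, and the T and NK cell genes (green) stand far above it in tumour 2.

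Tested over all genes, Serpinb1a alone rose in WT stroma and no gene fell. The test was limma's moderated test in a fit of all 12 arrays, with each tumour as a block and 4 residual degrees of freedom. It called 1 of 12584 genes (0.00795%) at an adjusted p under 0.05. At an unadjusted p under 0.05 there were 1097 genes (8.72%), 592 higher (4.7%) and 505 lower (4.01%) in stroma. The 95% interval of the difference lay wholly within 2-fold for 8662 genes (68.8%), so for these a 2-fold difference was outside the interval.

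Serpinb1a encodes an inhibitor of the serine proteases of neutrophils. It read -5.61, -1.54 and -4.64 in the epithelium of tumours 1, 2 and 3, and -2.80, 0.71 and -1.84 in the stroma. The stroma of every tumour was above its own epithelium, while the groups overlapped because both compartments of tumour 2 were high. The group means were -3.93 ± 2.12 in epithelium and -1.31 ± 1.81 in stroma (SD, n = 3). The paired differences were 2.81, 2.25 and 2.80, with a fitted mean of 2.62 (SE 0.187, adjusted p = 0.0395, limma). It was above background in 2 of 3 epithelial arrays. The call was lost in 12 of 15 other settings, among them the fit without the block (adjusted p = 0.791) and every fit that left out a tumour (adjusted p = 0.0538 to 0.264).

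No other gene on the higher side passed the adjusted threshold. Named by smallest p among genes at least 2-fold higher on average with the same sign in all 3 tumours, they were Trpv2, Ncf4, Srgn, Klf2, Atp2a3, Dok2, Nrros, Cxcr3, Ccr9, Ptpro and Plek, with adjusted p from 0.206 to 0.284. For all 11 the stromal arrays lay above the epithelial arrays with no overlap, and 1266 of all genes (10.1%) showed no overlap in either direction. The 11 were chosen on these same arrays, so their lack of overlap follows largely from the choice and adds no support. Trpv2, a cation channel of macrophages and other leukocytes, read -2.26, -1.85 and -2.62 in epithelium and -0.75, 0.45 and -0.31 in stroma, a mean difference of 2.04 (SE 0.210, adjusted p = 0.206). Ncf4, a cytosolic subunit of the phagocyte NADPH oxidase, read -2.34, -2.65 and -2.71 in epithelium and -0.88, 0.02 and -0.33 in stroma. Its mean difference was 2.17 (SE 0.254).

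Srgn, the core protein of the proteoglycan that packs leukocyte granules, read -0.56, -0.37 and -1.14 in epithelium and 1.48, 2.07 and 0.57 in stroma. Dok2, an adaptor of haematopoietic tyrosine kinases, had the largest difference of these genes, 2.68 (SE 0.356), with 2.31, 2.01 and 3.72 in tumours 1, 2 and 3. Nrros, which holds latent TGF-beta on macrophages, differed by 1.87, 1.80 and 2.60. In these 3 genes each tumour contributed a difference of over 1. Cxcr3 is the receptor for interferon-induced chemokines on activated T cells, and Ccr9 is a homing receptor of thymus and gut T cells. Cxcr3 read -0.69, 0.56 and -1.01 in epithelium and 1.05, 2.71 and 1.28 in stroma, and Ccr9 read -2.21, -1.41 and -2.24 against -0.85, 1.33 and 0.02. Klf2, a transcription factor of resting T cells and endothelium, differed by 1.46, 2.85 and 2.30. The calcium pump Atp2a3, abundant in haematopoietic cells, differed by 2.23, 2.53 and 1.98. Ptpro, a receptor tyrosine phosphatase, and Plek, a protein kinase C substrate of platelets and leukocytes, had the smallest differences, 1.06 (SE 0.154) and 1.05 (SE 0.154). The reference channel of these 12 genes differed between the WT stromal and WT epithelial arrays by -0.26 to 0.44 on average.

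Their upstream sequence was searched for GAGGAAGT, a core recognised by the myeloid and lymphoid factor PU.1, on either strand in the 250 bases before each RefSeq gene start (GRCm38.p6). It was present for Trpv2 and Cxcr3, 2 of the 9 higher genes with a promoter entry, and for 2 of the 9 lower genes named further on. Of 27025 genes with an entry, 755 (2.79%) held it. The match is a description of letters, not of a bound site. The windows of the 2 higher genes are shown 5′ to 3′ on the gene's strand with the match in capitals; in Cxcr3 it lies on the opposite strand.
Trpv2, chr11:62574236-62574485, plus strand: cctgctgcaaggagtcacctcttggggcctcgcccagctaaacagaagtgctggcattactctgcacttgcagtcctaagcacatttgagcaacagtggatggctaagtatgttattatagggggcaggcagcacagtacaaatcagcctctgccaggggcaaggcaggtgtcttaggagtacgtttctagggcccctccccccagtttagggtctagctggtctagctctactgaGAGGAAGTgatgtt
Cxcr3, chrX:101734148-101734397, minus strand: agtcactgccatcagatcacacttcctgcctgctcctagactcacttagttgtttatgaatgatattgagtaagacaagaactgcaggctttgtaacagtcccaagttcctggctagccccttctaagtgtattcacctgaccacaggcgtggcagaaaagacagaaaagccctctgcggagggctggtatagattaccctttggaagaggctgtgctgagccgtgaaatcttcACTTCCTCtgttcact
The windows are equal in length, and each holds the match near its 3′ end, close to the gene start.

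**Figure D2:**
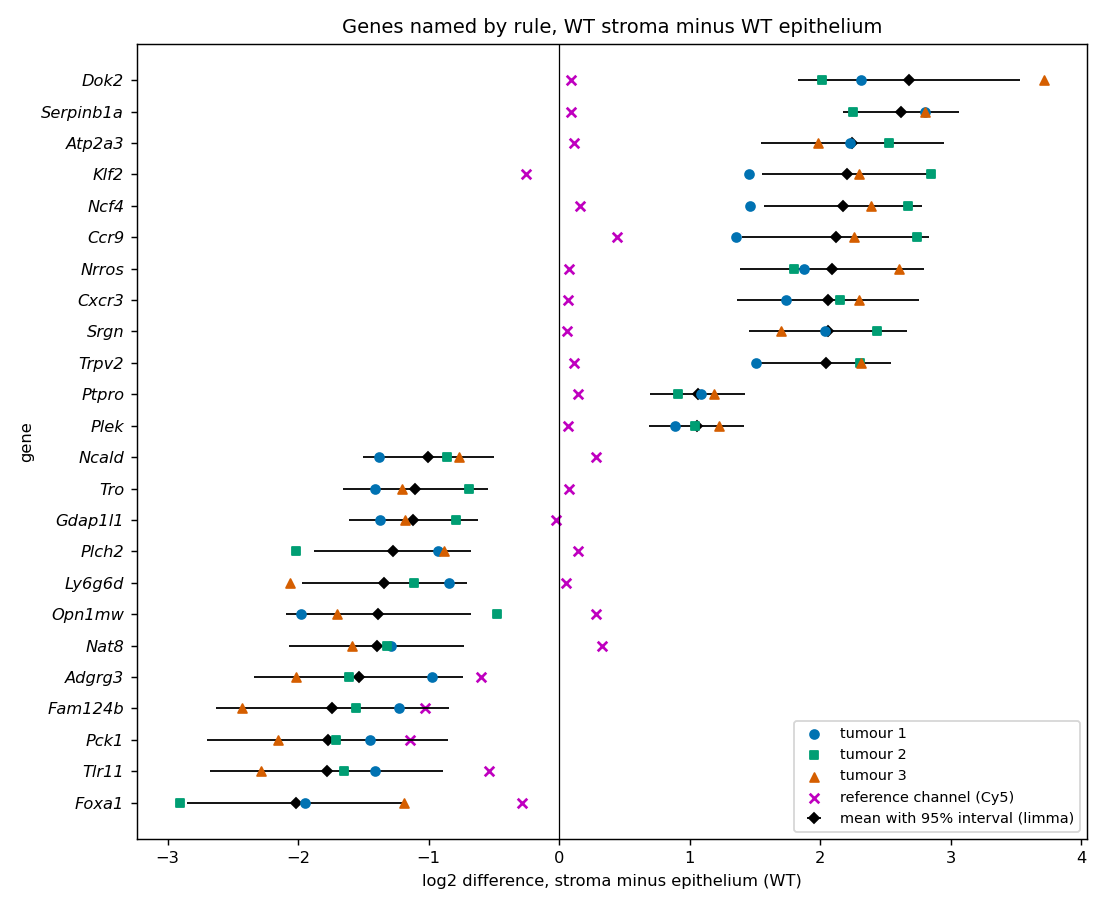
The 24 genes named by smallest p, 12 higher and 12 lower in WT stroma, with the log2 difference of stroma minus epithelium on the horizontal axis. Coloured symbols are the 3 tumours, black diamonds the fitted mean with its 95% interval, and magenta crosses the difference of the reference channel alone between stromal and epithelial arrays; the crosses lie within 0.44 of 0 for the higher genes and reach -1.15 (Pck1) among the lower ones.

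At least 2-fold higher in the stroma of all 3 tumours were 41 genes (0.326%). They included Serpinb1a and the genes above other than Ptpro and Plek, which were under 2-fold in 1 tumour each (0.91 in tumour 2 and 0.88 in tumour 1). Among the others were Lsp1, a leukocyte actin-binding protein (3.28, SE 0.481), and the T cell genes Cd2 (2.46, SE 0.775), Cd4 (2.01, SE 0.616) and Ccr7 (2.94, SE 1.02). Cd74, the invariant chain of MHC class II, differed by 2.39 (SE 0.658), and the class II chain H2-Eb1 by 1.85 (SE 0.478). The monocyte chemoattractant Ccl2 differed by 2.31 (SE 0.371). Their adjusted p-values ran from 0.284 to 0.506, so none of these differences passed the test. In tumours 1 and 2 alone, 60 genes were at least 2-fold higher in both.

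On the lower side, 50 genes (0.397%) were at least 2-fold lower in the stroma of all 3 tumours. Foxa1, which opens chromatin in luminal cells, led the 12 lower genes named by the same rule, which leaves out clone names such as 4930412O13Rik. It read 0.78, 1.76 and -0.32 in epithelium and -1.17, -1.14 and -1.51 in stroma, with no overlap. Its Cy3 signal was above background in all 3 epithelial arrays and in 0 of 3 stromal arrays. It was thus kept through the epithelial arrays alone, and its level in stroma is only a bound. The mean Cy3 signal in epithelium was 4.08-fold above that bound, a comparison that leaves out the spread among arrays. The fitted difference of the ratio was -2.02 (SE 0.351, 95% interval -2.85 to -1.18, adjusted p = 0.379, limma). Nat8, an N-acetyltransferase, read 5.03, 4.15 and 4.93 in epithelium and 3.74, 2.83 and 3.34 in stroma, differences of -1.29, -1.32 and -1.59 (SE of the mean 0.282, adjusted p = 0.398). Lama1, the alpha-1 chain of basement membrane laminin, read 6.48, 6.01 and 6.27 against 5.29, 4.65 and 4.34. Neither Foxa1, Nat8 nor Lama1 passed the threshold in WT tumours, and in KO tumours all 3 fell in stroma (limma adjusted p = 0.0039, 0.00199 and 0.00366).

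The remaining genes named on the lower side were Gdap1l1, Plch2, Ly6g6d, Ncald, Tlr11, Tro, Opn1mw, Fam124b, Pck1 and Adgrg3, with differences down to -1.78 (Tlr11) and adjusted p from 0.398 to 0.402. Plch2, a phospholipase C, read 5.24, 4.72 and 5.05 in epithelium and 4.31, 2.71 and 4.17 in stroma. The neuronal calcium sensor Ncald read 2.17, 0.91 and 1.44 against 0.78, 0.05 and 0.67. Pck1, an enzyme of gluconeogenesis, and Tlr11, a sensor of microbial profilin, followed another course. So did Fam124b and Adgrg3, which each read 2.69 on WT epithelium 3. Their reference channel differed by -1.03 and -0.60 between the WT stromal and epithelial arrays on average. Pck1 read 0.33, 1.29 and 2.64 in epithelium and -1.12, -0.42 and 0.48 in stroma, and Tlr11 read 0.37, 1.36 and 2.59 against -1.04, -0.29 and 0.31. Both were highest on the array of WT epithelium 3, and the stroma of that tumour was the highest of the stromal arrays. In KO tumours they differed by 0.91 and 0.84, in the opposite direction and without passing the test.

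This course was shared by most of the lower set. Of the 50 genes, 45 (90%) correlated over the 12 arrays at r above 0.9 with the median profile of the set. Of all 12584 genes, 227 (1.80%) did so. The 12 arrays include the 6 WT arrays that chose the set, so part of this follows from the choice. On the 6 KO arrays, which played no role in choosing the set, 44 of the 50 did so, against 1.80% of all genes. Of the 41 higher genes, 20 (48.8%) passed the same cut with their own median profile over the 12 arrays. On the KO arrays 24 (58.5%) of the 41 did. Members picked as examples differ in kind: Src is a tyrosine kinase, Aire a thymic transcription factor, Cryba2 a lens crystallin, Olfr220 an odorant receptor and Zfp42 a stem cell factor. Whether the set shares a function was not tested. The exceptions to the shared course were Foxa1, Lama1, Nat8, Ppp1r9a and 4930412O13Rik. The reference channel was on average lower by at least 0.5 on the 3 WT stromal arrays for 28 of the 50 genes (56%), against 2.31% of all genes and 0 of the 41 higher genes. On WT epithelium 3 the set stood 2.54 above its mean over 12 arrays in the ratio and 1.99 above it in the reference channel alone, which holds the same RNA on every array. On the other 5 WT arrays the reference channel lay between -0.50 and -0.03. In tumour 1 it read -0.47 in epithelium and -0.50 in stroma while the ratio read -0.24 and -1.40, and in tumour 2 it read -0.49 and -0.34 while the ratio read 0.72 and -0.79. The part of the slide, the array and the non-uniform spots in these differences was not tested. Without the 227 genes, an alternative chosen after seeing the data, Serpinb1a is again the only gene called. It correlated with the profile at r = -0.07 and so was not among those left out. That 5 of the 50 remain follows from the definition of the 227 and adds no support.

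**Figure D3:**
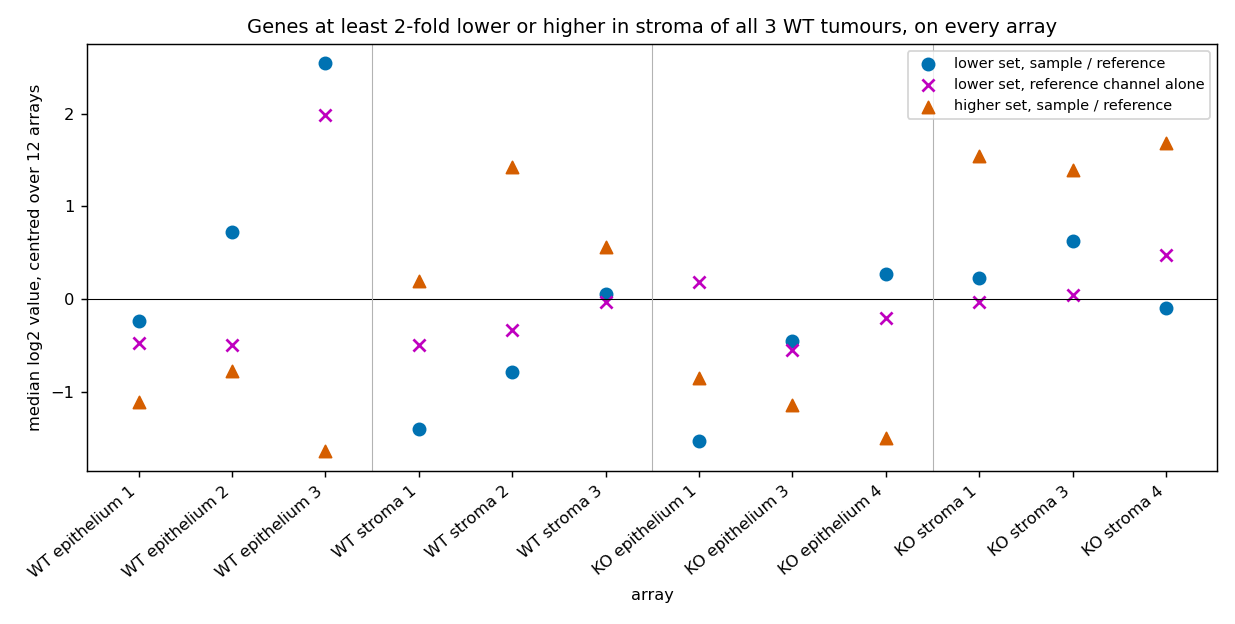
Median log2 value of the 50 genes at least 2-fold lower (circles, ratio; crosses, reference channel alone) and of the 41 genes at least 2-fold higher (triangles, ratio) in the stroma of all 3 WT tumours, each centred over the 12 arrays shown on the horizontal axis. The lower set peaks on WT epithelium 3 at 2.54, where the reference channel alone reads 1.99, and the higher set is above 0 on all 6 stromal arrays and below 0 on all 6 epithelial arrays.

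Among lists of marker genes, T and NK cell genes had the highest median difference, 2.01 against 0.02 for all genes, and most of it came from tumour 2. Of 17 genes, 13 were measured, 7 were higher in stroma in all 3 tumours and 1 was lower, while 15.8% and 15.4% of all genes were so. None of the 13 was called. The median difference was 0.10 in tumour 1, 3.97 in tumour 2 and 1.03 in tumour 3. Cd3d, a chain of the T cell receptor complex, read 0.35, 1.01 and -0.76 in epithelium and 0.70, 7.23 and 0.11 in stroma. The T cell kinase Lck read -2.02, -1.52 and -2.66 against -2.10, 3.77 and -0.45. The stroma of tumour 2 was by far the highest sample in both genes. Cd4, the helper T cell co-receptor, differed by 1.06, 3.97 and 1.01; a second, dimmer probe of Cd4 differed by 0.08, 0.67 and -0.04. Il2rb, the 1 gene lower in all tumours, follows the shared profile of the lower set.

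B cell genes were high in the same sample. Of 10 list genes, 2 were measured and none was called. Cd79b, part of the B cell receptor, read -3.78, -2.19 and -3.69 in epithelium and -3.53, 2.12 and -3.46 in stroma, highest in the stroma of tumour 2. The number of B and plasma cell genes above background was 7 of the 8 with a probe in the stroma of tumour 2, 5 in its epithelium and 1 to 2 on the other 4 arrays.

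Antigen presentation genes lay on the stromal side in most cases. Of 14 genes, 12 were measured, and 8 were higher in stroma in all 3 tumours, against 15.8% of all genes. None was lower in all 3 and none was called. In limma, 8 were higher at an unadjusted p under 0.05, as were 4.7% of all genes. The median difference was 0.28, 1.60 and 1.04 in tumours 1, 2 and 3. Of the class II genes, H2-Ab1 read 4.37, 4.97 and 3.32 in epithelium and 5.29, 5.86 and 5.74 in stroma, and Cd74 read 1.82, 1.90 and -0.59 against 3.32, 3.82 and 3.17. The class I genes H2-K1, H2-D1 and B2m differed by -0.20, -0.48 and -0.36 in tumour 1 and by 1.32, 1.43 and 1.62 in tumour 2. Interferon response genes had a median of 0.73, with 7 of 13 higher in all 3 tumours, against 15.8% of all genes, and none called. Usp18, which dampens interferon signalling, differed by 0.12, 2.28 and 2.25.

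Fibroblast genes had a median difference of 1.03, and the tumours did not share its sign. The median was 1.20 in tumour 1, -0.94 in tumour 2 and 3.17 in tumour 3. At least 2-fold higher in stroma were 12 of 21 measured genes in tumour 1 and 19 in tumour 3, where 2.94% and 10.9% of all genes were so. In tumour 2 it was 1 gene, with 10 at least 2-fold lower, where 4.92% of all genes were lower. Col1a1, a chain of type I collagen, read -2.76, 1.08 and -2.90 in epithelium and -0.05, -0.51 and 2.20 in stroma. Lum, a proteoglycan of collagen fibrils, read 1.11, 4.97 and 0.97 against 2.78, 3.21 and 4.32. In both, the epithelium of tumour 2 was above its own stroma and above the other epithelial arrays. Only S100a4 and Thy1 were higher in all 3 tumours: S100a4 differed by 1.72, 1.89 and 3.95 (mean 2.52, SE 0.531, adjusted p = 0.398), and its second probe by 1.97, 2.14 and 3.18. S100a4 is also expressed by leukocytes. None of the 21 genes was called, and in KO tumours all 21 rose in stroma, where 10.1% of all genes did.

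Matrix genes followed the fibroblast genes, with medians of 0.46, -0.65 and 2.15. Fn1, fibronectin, read -6.08, -3.70 and -7.05 in epithelium and -3.06, -4.29 and -1.27 in stroma. Mmp3, a stromal metalloproteinase, differed by 3.67, -0.78 and 3.20, and Timp1, a metalloproteinase inhibitor, by 2.12, -0.39 and 3.17. Lama1 was the 1 matrix gene of 26 with the same sign in all tumours. Vim, the mesenchymal intermediate filament, was higher in each, by 1.83, 0.60 and 2.62, and so was the transcription factor Zeb1, by 1.73, 0.94 and 2.82. Its paralog Zeb2 differed by -1.19, -1.41 and -2.63 with the brighter probe, which follows the shared profile of the lower set, and by 0.18, -0.19 and 1.45 with the second.

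Macrophage genes had medians of 0.50, -0.25 and 1.57, with 5 of 13 higher and 2 lower in all 3 tumours, where 15.8% and 15.4% of all genes were so, and none called. Among the lower members was Cd14, the lipopolysaccharide co-receptor, which differed by -0.19, -0.21 and -0.35. The complement chain C1qa differed by 1.34, 0.11 and 1.87 and the scavenger receptor Marco by 0.29, 1.37 and 1.42. Endothelial genes had medians of 0.22, -0.65 and 0.55, with none of 14 called. In tumour 2, 4 of the 14 were at least 2-fold lower in stroma, against 4.92% of all genes. In tumour 3, 5 were at least 2-fold higher, against 10.9% of all genes, and 1 was lower. The interval lay within 2-fold for 4 of the 14, where 68.8% of all genes did, so the small medians do not show likeness. Vwf, the von Willebrand factor, read 2.29, 3.48 and 0.45 in epithelium and 2.52, 0.97 and 2.74 in stroma. Chemokine and inflammatory genes had a median of 1.12, with 5 of 13 higher in all 3 tumours, against 15.8% of all genes, and none called. Ccl2 read -5.68, -5.38 and -5.53 in epithelium and -2.96, -4.25 and -2.45 in stroma, with no overlap (adjusted p = 0.337). Ccl7, another monocyte attractant, was above background in 0 of 3 epithelial arrays and in all 3 stromal arrays, so it was kept through the stromal arrays alone. Its mean Cy3 signal in stroma was 2.63-fold above the background bound of the epithelial arrays, which leaves out the spread among arrays. The fitted difference of the ratio was 1.73 (adjusted p = 0.398, limma) and ran from 1.07 to 3.24 over the settings tried.

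**Figure D4:**
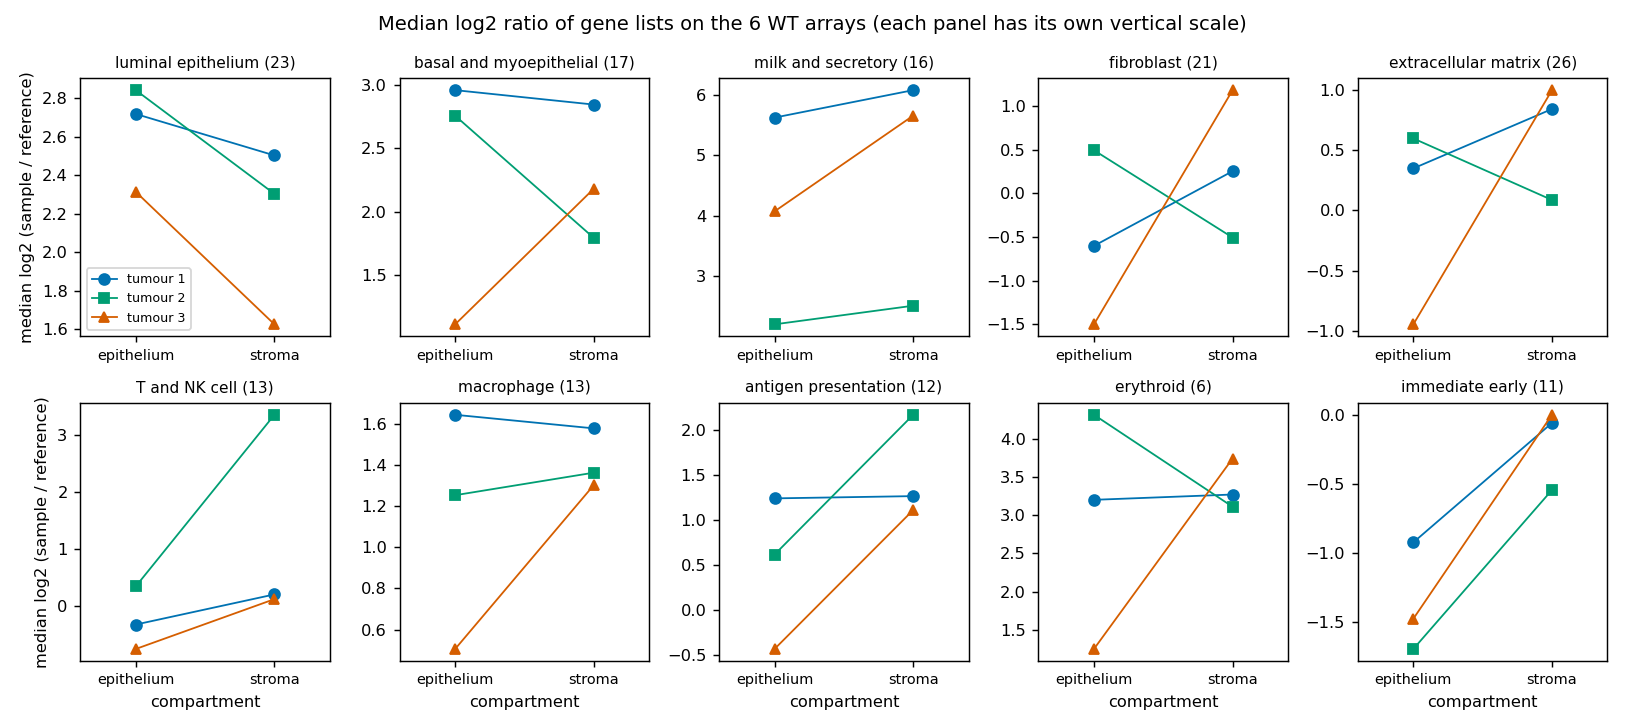
Median log2 ratio of sample to reference of 10 gene lists in epithelium and stroma; each line joins the 2 arrays of 1 WT tumour and each panel has its own vertical scale, with the number of measured genes in its title. The lines of the fibroblast and erythroid lists go down in tumour 2 and up in tumour 3, and the line of the T and NK cell list climbs most in tumour 2.

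Luminal genes were slightly lower in stroma, with a median of -0.41. Of 23 measured genes, 11 were lower in all 3 tumours, against 15.4% of all genes, and none was called. The medians were -0.18, -0.50 and -0.26. Cldn3, a tight junction protein, differed by -0.42, -1.18 and -1.50, and the prolactin receptor Prlr read 4.70, 4.08 and 3.40 in epithelium and 3.91, 2.70 and 3.04 in stroma. Not all luminal genes shared the sign. Krt8 was the 1 member higher in all tumours, by 0.40, 1.43 and 0.81 (mean 0.88, SE 0.235, adjusted p = 0.417), while its partner Krt18 differed by -0.05, -0.26 and 0.26. The interval for Krt18 ran from -0.69 to 0.66 and that for Epcam, an epithelial adhesion molecule, from -0.49 to 0.33.

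Basal genes had a median of 0.01 that covered opposite pairs: -0.11, -0.45 and 1.01. Krt14 read 5.51, 7.21 and 1.18 in epithelium and 3.98, 7.01 and 5.47 in stroma, and the oxytocin receptor Oxtr read 5.81, 6.35 and 2.15 against 4.76, 5.49 and 4.07. The epithelium of tumour 3 was the low sample in both. Trp63, the gene of p63, differed by 0.22, 0.26 and 1.56, while its second probe gave a mean of -1.11 with a negative value in each tumour, so its sign depends on the probe. Of 16 measured milk and secretory genes, 5 were higher and 1 lower in stroma in all 3 tumours, and none was called. Among all genes, 15.8% were higher and 15.4% lower in all 3. Spp1 differed by 1.59, 0.51 and 2.95. Lcn2 differed by 0.42, 0.41 and 1.06, and its mean with the Cy3 channel alone was -0.02. The casein Csn2 separated the tumours rather than the compartments. Csn2, beta-casein, read 9.44, 0.61 and 7.37 in epithelium and 9.24, 0.29 and 7.69 in stroma, low in both compartments of tumour 2. Wap, whey acidic protein, differed between compartments by -0.05, 0.23 and 0.48.

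Immediate early genes were higher in stroma by a median of 0.88. Of 11 measured, 7 were higher in all 3 tumours, against 15.8% of all genes, and none was lower. None was called. Dusp1, a MAP kinase phosphatase, read -1.68, -2.02 and -1.47 in epithelium and -0.58, -1.08 and -0.69 in stroma, a difference of 0.94 (SE 0.181, adjusted p = 0.398). Fosb differed by 2.34, 0.64 and 2.21 and Fos by 2.01, 0.14 and 1.02. Glycolysis and hypoxia genes had a median of 0.38, with 13 of 21 higher and 1 lower in all 3 tumours, against 15.8% and 15.4% of all genes. Adm, the hypoxia-induced peptide adrenomedullin, differed by 1.21, 0.96 and 1.31. Ribosomal protein genes had a median of 0.44, with 0.01, 0.49 and 0.69 by tumour. For 25 of 26 respiratory chain genes the interval lay within 2-fold, where 68.8% of all genes did.

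No gene of the Wnt pathway was called. Of 24 measured genes, 6 were lower and 1 higher in all 3 tumours, where 15.4% and 15.8% of all genes were so, and the median was -0.11. Wnt1 differed by -0.47, -0.64 and -0.62 (mean -0.58, SE 0.252, adjusted p = 0.574). The reference channel of its probe was on average 0.53 higher on the WT stromal arrays than on the WT epithelial arrays. The Cy3 channel alone gave 0.08 and its second probe gave -0.06, so no direction is assigned. Rnf43, a membrane ubiquitin ligase and feedback target of Wnt signalling, differed by -0.47, -0.65 and -0.85, and Sox9, a progenitor transcription factor, by -0.91, -0.46 and -0.93. For 11 of the 24 genes the interval lay within 2-fold, where 68.8% of all genes did. Among 20 measured retinoid genes the median was 0.07, with 2 higher and 4 lower in all 3 tumours and none called. These counts were near the shares among all genes, 15.8% higher and 15.4% lower. Aldh1a2, which makes retinoic acid, differed by 0.96, 1.13 and 2.06, and Cyp26b1, which degrades it, by 0.79, 1.07 and 3.97. Among the lower members were the retinaldehyde reductase Dhrs3 (-0.52, -1.02 and -0.09) and the retinoid X receptors Rxra (-0.72, -0.79 and -0.04) and Rxrg (-0.45, -0.24 and -0.39). Tgm2, a transglutaminase induced by retinoic acid, differed by 0.16, -1.22 and -2.72. Rarb read -0.76, 0.85 and 0.77 in epithelium and -0.01, -0.29 and 1.37 in stroma, a difference of 0.07 (SE 0.596, interval -1.35 to 1.49).

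**Figure D5:**
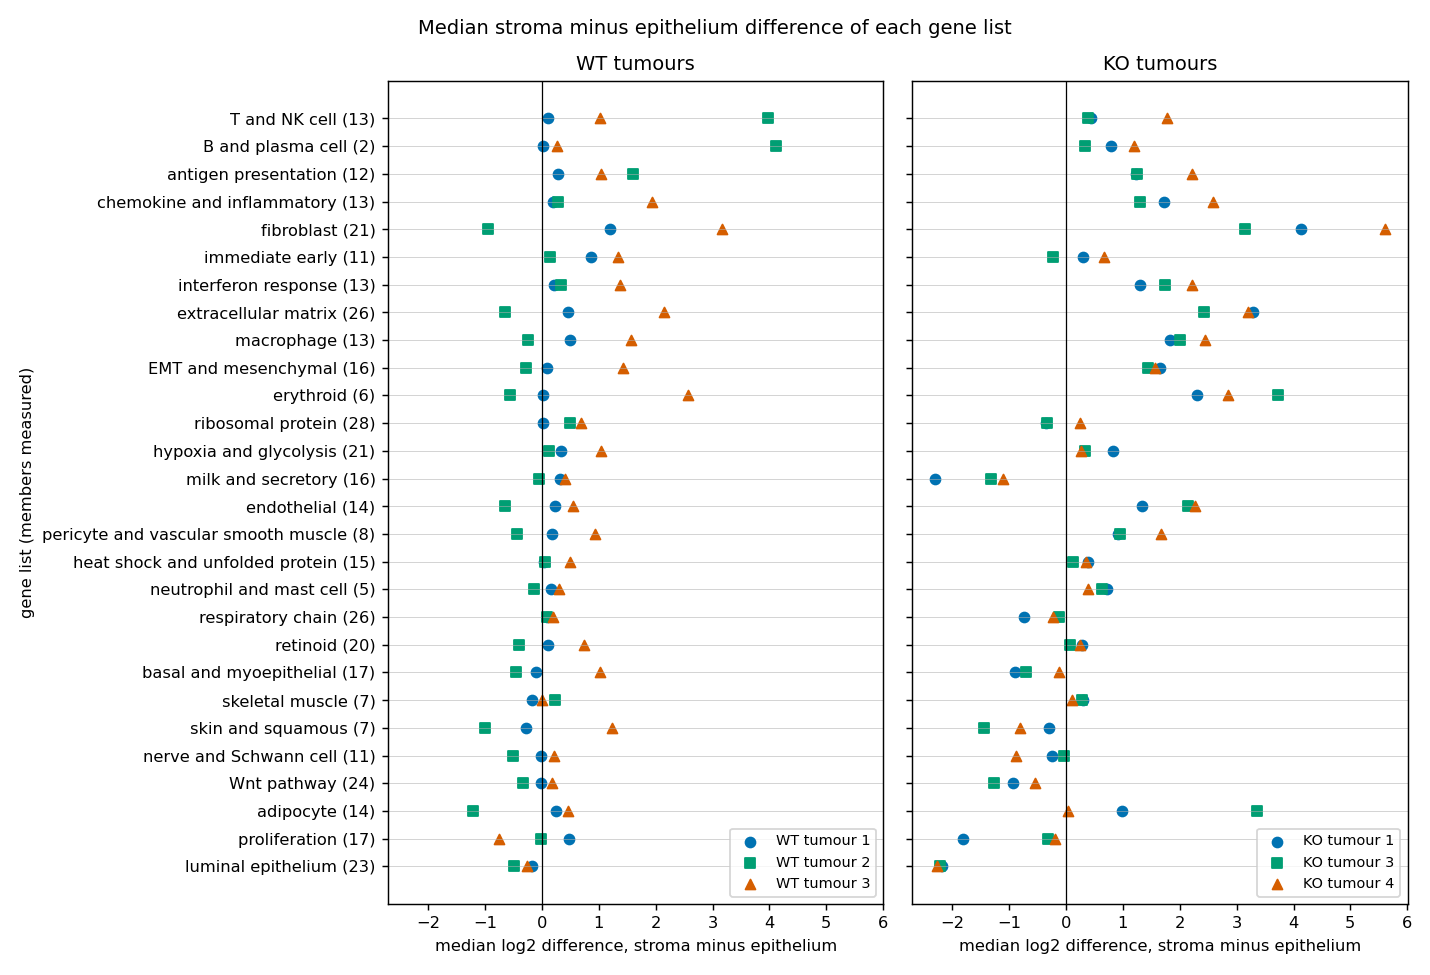
Median log2 difference of stroma minus epithelium for the 28 gene lists, with the number of measured genes in brackets; symbols are tumours, WT on the left and KO on the right, on the same horizontal scale. In WT tumours the fibroblast medians are 1.20, -0.94 and 3.17, while in KO tumours they run from 3.15 to 5.61.

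The 3 WT pairs differed from each other in the genes that separated their compartments. Across genes, the stroma minus epithelium differences correlated at r = 0.169 between tumours 1 and 2, 0.292 between 1 and 3, and 0.120 between 2 and 3. Tumour 1 had 370 genes at least 2-fold higher in stroma (2.94%) and 283 lower (2.25%). Of the 370, 237 (64.1%) were also higher in tumour 3, where they made up 17.2% of its higher genes. Leading genes of a tumour are given here among those above background on both of its arrays. On that basis the highest genes of tumour 1 were Ccl8, Gzmc, Ccl6, C1qtnf3 and Podn, differing by 3.97, 3.74, 3.52, 3.48 and 3.29. Ccl8 and Ccl6 are macrophage chemokines, Gzmc is a granzyme of cytotoxic cells, and Podn is a matrix proteoglycan. The second probe of C1qtnf3 gave -0.08 in this tumour. Its lowest genes were Cited1, Rspo1, Klk11, Rhox2h and Ly6d. Cited1, a transcriptional coactivator of mammary ductal epithelium, read 4.69 in epithelium and -0.66 in stroma, and Rspo1, a secreted amplifier of Wnt signalling, read 5.34 and 1.52.

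Tumour 2 had 527 genes higher (4.19%) and 619 lower (4.92%). Its highest genes were those of lymphocytes: Ccr7, the lymph node homing receptor, read -0.13 in epithelium and 6.49 in stroma, and the T cell chemokine Ccl5 read -2.78 and 3.04. Cd3d, Cd6 and Dapl1 differed by 6.22, 5.97 and 5.80. The second, dimmer probe of Cd6 gave 0.07. Its lowest genes were Fgg, Cited1, Nccrp1, Alox12e and Car3, from -3.79 to -2.70. Fgg, the gamma chain of fibrinogen, differed by -5.17 and -3.79 in tumours 1 and 2 and by 0.80 in tumour 3. Car3, a carbonic anhydrase abundant in fat cells, read 5.57 in the epithelium of tumour 2 and 2.87 in its stroma. The adipocyte median in this tumour was -1.21, so the medians of fat, fibroblast and matrix genes all lay on the epithelial side.

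Tumour 3 had 1374 genes higher (10.9%) and 768 lower (6.1%). Its highest genes were Ly6d, Podn, Fn1, Fbp1 and Anxa8, differing by 6.21, 5.79, 5.77, 5.54 and 5.35. Ly6d, a surface protein of squamous and some luminal cells, read -1.23 in epithelium and 4.98 in stroma, while in tumour 1 it read 4.23 and 1.19. Anxa8 is an annexin of basal and squamous epithelium. Haemoglobin also belonged to this pattern: Hba-a1 read 7.12, 7.29 and 1.87 in the epithelia and 7.15, 6.72 and 6.22 in the stromata. Its lowest genes were Angptl6, Ticrr, H2al1a, H2al1e and Lat, from -5.15 to -4.57. Ticrr, H2al1a and H2al1e read 3.88, 3.81 and 3.87 on WT epithelium 3 and between -1.77 and 0.41 on the other 5 arrays. Their reference channel was lower on the 3 WT stromal arrays than on the 3 WT epithelial arrays by 1.34, 2.07 and 1.86 on average. Proliferation genes had a median of -0.75 in this tumour and 0.48 in tumour 1.

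Opposite signs joined tumours 2 and 3 most often, and tumour 3 also had the most genes at least 2-fold apart (17.1%). Of 12584 genes, 200 were at least 2-fold lower in the stroma of tumour 2 and higher in that of tumour 3, and 15 the other way. Among the 200 were 9 of 21 measured fibroblast and 6 of 26 matrix genes. In the same direction, these 2 tumours shared 201 genes at least 2-fold higher and 161 lower. Retnla, a secreted product of alternatively activated macrophages and fat, differed by 5.63 in tumour 1 and by -2.49 in tumour 2, and read 2.16 in the epithelium and 5.26 in the stroma of tumour 3. Lat, the T cell signalling adaptor, led the other direction with 0.11, 5.29 and -4.57.

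The compartments stood further apart in KO tumours, but no single gene's difference between the genotypes passed the test. In KO tumours 2567 genes were called (20.4%), of which 1267 rose in stroma (10.1%) and 1300 fell (10.3%). The difference between the KO and WT compartment effects was called for 0 of 12584 genes by limma, with 2314 (18.4%) at an unadjusted p under 0.05. This count depended on the fit: it was 274 with tumour as a random block, 118 with the Cy3 channel alone and 185 without WT tumour 3. Wnt1 differed by -4.02 in KO and -0.58 in WT (adjusted p of the difference 0.0544). The luminal median was -2.29 in KO, with 18 of 23 genes called lower, and -0.41 in WT. Krt8 differed by -2.87 in KO and 0.88 in WT (adjusted p of the difference 0.0544). Serpinb1a rose by 3.91 in KO stroma and by 2.62 in WT stroma, a difference of 1.29 (95% interval 0.66 to 1.92, adjusted p = 0.0936).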

How the data were processed

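The deposited scanner files, made with Agilent Feature Extraction 10.7.3.1 per the file headers, hold an intensity per spot and channel. Median intensities were background-corrected by normexp (offset 50) and loess-normalized within each array (R 4.3.3, limma 3.58.1), and ratios were turned to Cy3 over Cy5. The deposited log10 ratios and the log2 values of the authors' deposited table served as checks only; in that table the epithelial columns run as reference over sample (r = -0.92 to -0.90 with the WT arrays), and the stromal columns match no array, so it was not used. Of 55681 probes, 27235 were named through RefSeq accessions, giving 20660 genes. The brightest kept probe stands for a gene. Non-uniform spots were left out.

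The fit used tumour as a fixed block, a compartment term for each genotype, and Benjamini-Hochberg adjustment over 12584 genes, two-sided. Pairing comes from the titles: deviations from the group means correlated at 0.459, 0.289 and 0.258 for arrays of the same tumour and at -0.375 to 0.015 for others. Deviations cancel within a group, so the low values for the others follow in part from the calculation. Named genes were Wnt1 and Rarb, the 12 leading genes in each direction, 2 per list by smallest p, and the 5 highest and lowest per tumour above background on both arrays; other list members were named after their values were seen. Arrays and lists were chosen with earlier results of these data known. The fit was tested on simulated data. Results of some genes are not reported here. With 3 arrays a group, the number of arrays limits the precision.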

Additional observations from a re-analysis of the deposited data

Results flagged for a closer look

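Some genes named in the text had a compartment difference of opposite sign in every WT tumour from that in every KO tumour, as did 365 of 12584 genes (2.90%); for none of those given here did the difference between genotypes pass limma's adjusted threshold. Krt8 differed by 0.88 in WT and -2.87 in KO (adjusted p of the difference 0.0544), and Lcn2, a secreted iron-binding defence protein, by 0.63 and -1.64 (adjusted p = 0.0544). Kcnj8, a potassium channel of pericytes, differed by -0.83 and 2.41 (adjusted p = 0.0673). The ribosomal protein Rpl32 differed by 0.52 and -0.19 (adjusted p = 0.234). The immediate early gene Fos differed by 1.06 and -0.54 (adjusted p = 0.170), the interleukin-2 receptor chain Il2rb by -0.92 and 0.96 (adjusted p = 0.184), and Angptl6, an angiopoietin-like secreted protein, by -1.83 and 0.30 (adjusted p = 0.426). Angptl6 differed by -0.05, -0.30 and -5.15 in WT tumours 1, 2 and 3, so its WT mean rests on tumour 3. It read 2.66 on WT epithelium 3, against -2.53 and -1.81 in the epithelia of tumours 1 and 2. Lcn2 gave -0.02 in WT with the Cy3 channel alone. The retinaldehyde reductase Dhrs3 differed by -0.54 in WT and 0.59 in KO (adjusted p = 0.163).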

How the results depend on the processing

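The count of 1 gene called in WT became 0 without the replicate block, with tumour as a random block (correlation 0.230), with the 6 WT arrays alone, with Agilent's processed signals, with median centring, with the Cy3 channel alone, with probes above background on all 6 arrays, and in every fit that left out a replicate (range 0 to 0); 772 genes had an unadjusted p under 0.05 without the block. The count of genes differing between the KO and WT compartment effects, 0 here, was 57 with no block, 274 with a random block, 118 with Cy3 alone, 22 with no filter, 75 with probes above background on all 6 arrays and 177 with array weights, and 0 to 185 when a replicate was left out, 185 being without WT tumour 3. Processed signals put 5402 genes within 2-fold in place of 8662, and 12.04%, 17.6% and 27.2% of genes past 2-fold in tumours 1, 2 and 3. Signs turned for Hba-a1 without WT tumour 3 (-0.27; highest 2.19 without tumour 2), for Lcn2 (-0.0232), Tyms (0.51), Wnt1 (0.0777) and Rarb (-0.0772) with Cy3 alone, for Rarb without WT tumour 1 (-0.26) or 3 (-0.19; highest 0.68 without tumour 2), for Mb with processed signals (0.0455), and for Mbp (-0.0305) and Trp63 (-0.22) with the mean of all probes. The cause was not tested. With processed signals, an alternative chosen after seeing the data, 106 genes were at least 2-fold higher in all 3 tumours, 40 of the 41 among them, and 93 were lower, 44 of the 50 among them; with Cy3 alone it was 42 and 48, with 28 and 25 shared.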

Other observations

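Fat cell genes set the tumours apart, and the pair given here, Cfd and Fabp4, was chosen after its values were seen. Cfd, the fat cell protease adipsin, read 0.28, 10.65 and 4.64 in the epithelia of WT tumours 1, 2 and 3 and 7.90, 9.55 and 6.54 in the stromata, a difference of 7.63 in tumour 1 and -1.10 in tumour 2, and it was above background in 2 of 3 epithelial arrays. Fabp4, a fatty acid carrier of fat cells and capillaries, read 1.73, 5.78 and 0.01 in the epithelia and 2.44, 4.11 and 3.22 in the stromata. Of the genes leading single tumours, Dapl1 differed by -1.60, 5.80 and -0.92. Rhox2h, a homeobox gene of the reproductive cluster, read 3.40 in the epithelium of tumour 1 and between -2.79 and -0.33 on the other 5 arrays.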
